A study of Mus musculus with 170 samples.

Results

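The 32 genes described here carry glucose into the cell, break it down to pyruvate and lactate, export the lactate and restrain pyruvate dehydrogenase. They were taken by name from a table of 40549 gene rows, and all 32 were found. Their levels were measured by Smart-seq2, a full-length single-cell RNA-seq protocol, in cells picked by hand from the ventricles of E9.5 mouse hearts of strain C57BL/6 as labelled. Control hearts, labelled wild type, carried Dgcr8 loxP/loxP and the membrane reporter Rosa26 mT/mG/+ without Cre, and cKO hearts, labelled Mesp1Cre/+; Dgcr8-/-, carried the same floxed alleles and reporter together with Mesp1 Cre/+. Mesp1-Cre is active in early mesoderm that gives rise to the heart, and Dgcr8 is the partner of Drosha in the complex that releases microRNA hairpins, so the deletion was directed at all Mesp1 descendants and not at cardiomyocytes alone. The table held 74 control and 69 cKO cells, each in 2 batches named in the labels. The labels name no embryo, so each genotype counted as 1 sample, no difference was tested, and every SD is a spread over cells.

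Glycolysis splits glucose into pyruvate in the cytosol and yields ATP without oxygen. Most steps have several genes for the same reaction. Some isoforms are typical of muscle (Pgam2, Eno3, Pfkm), of proliferating or embryonic cells as well as muscle (Hk2, Ldha), or of oxidative tissue (Ldhb). The embryonic heart is known to depend on glycolysis before its mitochondria mature, and the adult heart mainly burns fatty acids.

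Of the 32 genes, 30 had at least 1 promoter window in the RefSeq promoter table (GRCm38.p6, 250 bases before to 50 bases after a start). Slc2a3 and Slc2a4 had none. The 5 windows below are examples from genes that had a single window there and differed by at least 1 log2 unit between the genotypes. Hk2, Pfkp and Slc16a3 were higher and Ldhb and Pgam2 lower in cKO, and Pgam2 had the smallest difference of the 5 (-1.19). The starts are those of RefSeq and can differ from the GENCODE gene positions given further below. Capitals mark ACGTG, the core of the site bound by hypoxia-inducible factors, and CATTCC, the core of the MCAT element bound by TEAD factors, on either strand. Hk2 lies at chr6:82774405-82774704 (minus strand), Pfkp at chr13:6648722-6649021 (minus), Slc16a3 at chr11:120948817-120949116 (plus), Ldhb at chr6:142507908-142508207 (minus) and Pgam2 at chr11:5803747-5804046 (minus).
Hk2: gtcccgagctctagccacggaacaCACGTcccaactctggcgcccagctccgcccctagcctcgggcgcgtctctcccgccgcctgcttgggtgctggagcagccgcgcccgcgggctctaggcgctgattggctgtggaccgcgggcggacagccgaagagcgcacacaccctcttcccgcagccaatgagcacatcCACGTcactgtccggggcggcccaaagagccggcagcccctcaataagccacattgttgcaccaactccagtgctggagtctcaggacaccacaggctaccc
Pfkp: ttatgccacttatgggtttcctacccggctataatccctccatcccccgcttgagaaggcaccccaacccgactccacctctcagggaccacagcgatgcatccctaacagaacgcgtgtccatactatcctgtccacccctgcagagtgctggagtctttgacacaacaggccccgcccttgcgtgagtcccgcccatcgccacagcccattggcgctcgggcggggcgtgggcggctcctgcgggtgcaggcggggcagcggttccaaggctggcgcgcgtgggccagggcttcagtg
Slc16a3: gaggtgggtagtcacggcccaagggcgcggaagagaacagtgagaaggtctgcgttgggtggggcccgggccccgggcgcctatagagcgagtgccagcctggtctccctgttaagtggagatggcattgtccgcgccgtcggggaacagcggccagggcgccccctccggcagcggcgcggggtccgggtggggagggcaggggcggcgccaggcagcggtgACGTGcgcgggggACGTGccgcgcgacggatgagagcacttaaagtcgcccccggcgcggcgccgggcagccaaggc
Ldhb: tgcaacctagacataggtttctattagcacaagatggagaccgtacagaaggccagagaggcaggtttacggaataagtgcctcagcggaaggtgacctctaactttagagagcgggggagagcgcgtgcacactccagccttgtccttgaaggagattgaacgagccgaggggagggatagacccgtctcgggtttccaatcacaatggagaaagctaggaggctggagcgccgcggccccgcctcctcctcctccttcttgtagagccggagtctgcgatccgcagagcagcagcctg
Pgam2: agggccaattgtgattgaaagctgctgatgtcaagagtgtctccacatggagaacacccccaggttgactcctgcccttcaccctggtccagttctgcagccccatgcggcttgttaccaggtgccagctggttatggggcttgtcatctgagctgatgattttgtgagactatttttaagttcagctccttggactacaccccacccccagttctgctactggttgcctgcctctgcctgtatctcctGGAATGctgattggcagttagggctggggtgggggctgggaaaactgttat

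The Hk2 and Slc16a3 windows each held ACGTG 2 times, and the Pgam2 window held CATTCC once, next to the RefSeq start. The windows of Pfkp and Ldhb held neither. Across the genes, ACGTG stood in a window of 17 of the 30, against 21.8% of 27025 genes in the table. The E-box CACGTG, which contains ACGTG, stood in 6 of the 30 against 8.09% of genes, and CATTCC in 7 of the 30 against 16.6%. Of the 30 genes, 12 had more than 1 window, and the 49 windows had a median GC content of 59% against 52.7% over all windows. Among windows with at least 60% GC, ACGTG stood in 66.7% of the 24 windows of these genes and in 26.5% of all 9690. A match describes letters in a window and no binding was measured here.

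Cells were classed from 55 marker genes, none of them among the 32 genes. The cardiomyocyte-like (CM-like) class held 94 cells, 27 control (19 in batch 1 and 8 in batch 2) and 67 cKO (34 and 33), and all 15 cardiomyocyte markers led it. Control CM-like cells had a median of 9302 detected genes and 6.3% of TPM from mitochondrially encoded genes, and cKO CM-like cells 8650 and 3%. The order in detected genes differed by batch, with medians of 8458 in control and 9798 in cKO in batch 1 and 9704 and 7786 in batch 2, and its part in the results was not tested. No marker of endothelial, mesenchymal, epicardial or erythroid cells was counted as higher or lower between the genotypes, and their summed TPM had higher medians in cKO for each list (35.3 against 13.8 for the 13 endothelial markers, 14.6 against 3.81 for the 14 mesenchymal, 32.7 against 24.4 for the 6 epicardial, 6.54 against 1.34 for the 7 erythroid). The endothelial markers ranged from 2.66 to 235 summed TPM in control CM-like cells and from 2.75 to 440 in cKO, the mesenchymal from 0.0445 to 123 and from 0 to 379, the epicardial from 0.306 to 533 and from 0 to 355, and the erythroid from 0 to 357 and from 0 to 483. Of the 13 endothelial markers, only Cdh5 and Cd93 were below 1 TPM in every CM-like cell, and the others reached it in at least 1 cKO cell. The part of the other classes' transcripts in the results was not tested. Dgcr8 itself reached 1 TPM in 14 of 27 control and 21 of 67 cKO CM-like cells, with mean log2(TPM + 1) of 2.41 ± 2.89 and 1.66 ± 2.46, and a gene-level value also counts reads outside the floxed part. Xist reached 1 TPM in 3 of 74 control and 64 of 69 cKO cells and Ddx3y in 49 of 74 and 0 of 69 (which allows up to 4.35%), so genotype and sex-linked transcripts cannot be told apart, and Pgk1, Pdk3 and Pfkfb1 lie on chromosome X.

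In CM-like cells the glucose uptake and glycolysis genes lay mostly higher in cKO. A gene was counted as higher or lower when its mean log2(TPM + 1) differed by at least 1 log2 unit between the genotypes and both batches had the same sign. By that rule 11 of the 32 genes were higher, at the entry of glucose (Slc2a1, Slc2a3, Slc2a4), at the kinases of the upper pathway (Hk2, Pfkl, Pfkp) and their regulators (Pfkfb1, Pfkfb3), and at Aldoc, Pkm and the lactate exporter Slc16a3. Only Ldhb and Pgam2 were lower. The same rule counted 6.30% of the 15070 genes that passed the expression filter as higher and 6.15% as lower, so the share lower among the 32 genes (6.25%) was near the background and the share higher (34.4%) was above it.

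The 31 of these genes that passed the filter had a median difference of 0.76 log2 units against 0.05 over all genes that passed. Of the 32 genes, 23 were higher in both batches, 3 lower in both and 6 had batches of opposite sign. The filter asked for a TPM above 0 in more than 10 CM-like cells and removed Pfkfb4, which was above 0 in 9. Slc2a4, Pfkfb1 and Eno2 passed it mainly through cKO cells. Among the 28 genes above 0 in more than 10 control cells, 9 were higher and 2 lower, where the background was 7.94% and 9.20%.

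**Figure D1:**
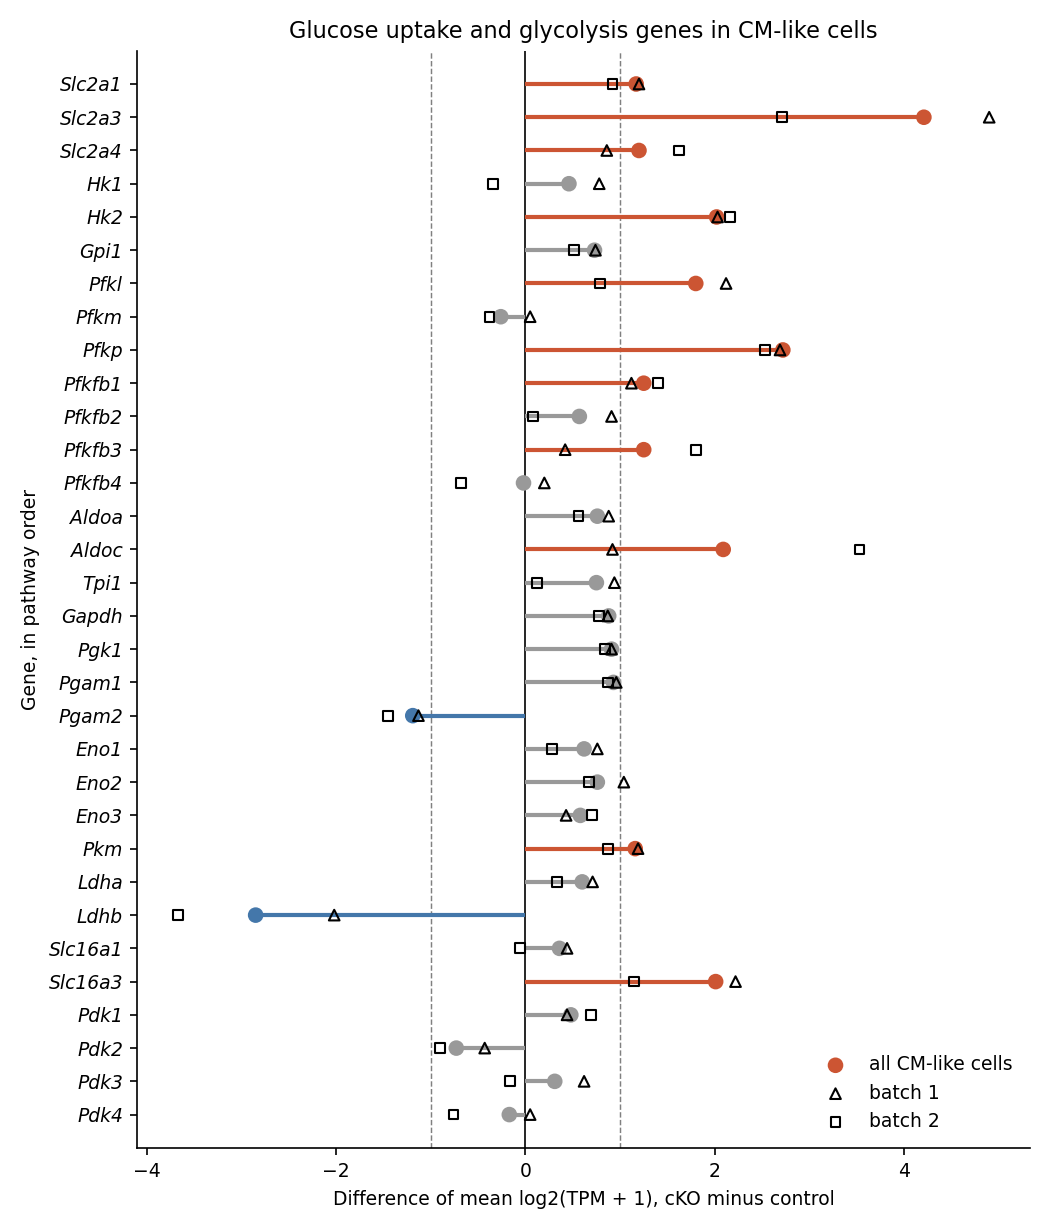
Difference of mean log2(TPM + 1) between cKO and control CM-like cells for each of the 32 genes in pathway order (x axis, log2 units). Filled circles show all CM-like cells, coloured red where counted as higher, blue where lower and grey otherwise, triangles batch 1 and squares batch 2, and dashed lines mark 1 log2 unit. Slc2a3 stands farthest to the right at 4.21 and Ldhb farthest to the left at -2.85, and the steps with a single gene lie between 0.73 and 1.16.

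Glucose enters through the facilitative transporters. Slc2a1 (GLUT1, the general embryonic transporter, chromosome 4, 119108711 to 119137983, plus strand, GRCm38) had the highest level of the 3 in both genotypes. Its log2(TPM + 1) ran from 2.69 through a median of 9.47 to 11.13 in control cells and from 4.78 through 10.13 to 11.75 in cKO cells. The mean was 8.78 ± 1.97 in control and 9.95 ± 1.25 in cKO, a difference of 1.17 (1.20 in batch 1, 0.92 in batch 2) that was smaller than the SD in either genotype. The groups overlapped, with 8 of 67 cKO cells above the highest control cell. Without the lowest control cell the difference was 0.93, below the threshold, and by medians over cells it was 0.66.

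Slc2a3 (GLUT3, a high-affinity transporter known from neurons and early embryos, chromosome 6, 122727809 to 122801640, minus strand) had the largest difference of all 32 genes. It ran from 0 through a median of 1.52 to 7.26 in control cells and from 0 through 7.52 to 9.4 in cKO cells. It reached 1 TPM in 15 of 27 control cells (55.6%, exact 95% interval 35.3 to 74.5) and 65 of 67 cKO cells (97%, 89.6 to 99.6). These intervals cover counting error only. The mean was 2.64 ± 2.54 in control and 6.85 ± 1.97 in cKO, a difference of 4.21 log2 units (4.9 in batch 1, 2.71 in batch 2), and the mean TPM was 24.3 and 195. The smaller difference in batch 2 went with control cells that averaged 1.98 log2 units more there than in batch 1, while cKO cells moved by -0.21. Most cKO cells, 35 of 67, lay above the highest control cell.

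Slc2a4 (GLUT4, the insulin-responsive transporter of muscle and fat) was scarce. It reached 1 TPM in 1 of 27 control cells and 18 of 67 cKO cells (26.9%, 16.8 to 39.1), with mean TPM of 0.137 and 9.73. The mean log2(TPM + 1) was 0.10 ± 0.40 and 1.31 ± 2.22, and the median cell of either genotype was at 0, so a comparison of medians gave no difference.

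Hexokinase traps glucose in the cell. Hk2, the inducible isoform of muscle (chromosome 6, 82725025 to 82774454, minus strand), ran from 1.08 through 6.6 to 8.35 in control cells and from 2.75 through 8.65 to 10.13 in cKO cells. Its mean was 6.22 ± 1.76 and 8.24 ± 1.35, a difference of 2.02 (2.03 and 2.16 in the batches), and 62 of 67 cKO cells lay above the control median. Hk1, the housekeeping isoform, had means of 4.67 ± 2.09 and 5.13 ± 2.26 with batches of opposite sign (0.78 and -0.34). Gpi1, which turns glucose-6-phosphate into fructose-6-phosphate, had means of 9.18 ± 1.27 and 9.91 ± 0.94, a difference of 0.73 with both batches higher.

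Phosphofructokinase commits the sugar to glycolysis. Pfkp, the platelet-type subunit (chromosome 13, 6579768 to 6648777, minus strand), ran from 0 through 6.42 to 7.99 in control cells and from 3.31 through 8.76 to 9.95 in cKO cells. The difference of means was 2.72 (5.79 ± 2.13 and 8.52 ± 1.07), with 2.69 in batch 1 and 2.53 in batch 2. This was larger than the SD of either genotype, and 52 of 67 cKO cells lay above every control cell.

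Pfkl, the liver-type subunit, ran from 0.35 through 6.54 to 7.68 in control and from 2.7 through 7.59 to 9.03 in cKO cells, with means of 5.64 ± 2.39 and 7.44 ± 1.21. Its difference was 1.80, 2.12 in batch 1 but 0.79 in batch 2, where control cells averaged 1.67 log2 units more than in batch 1. Pfkm, the muscle-type subunit, was low in both genotypes at 2.71 ± 2.45 and 2.44 ± 2.57, and its batches had opposite signs (0.05 and -0.38).

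The PFKFB enzymes make and degrade fructose-2,6-bisphosphate, which activates phosphofructokinase. Pfkfb3, the isoform with the strongest kinase activity, ran from 0 through 0.29 to 8.46 in control and from 0 through 2.17 to 6.74 in cKO cells. It reached 1 TPM in 9 of 27 and 42 of 67 cells, and its difference of 1.25 was 0.42 in batch 1 and 1.80 in batch 2. The highest value belonged to a control cell, and the mean TPM was 16.6 and 19, a log2 ratio of 0.19. Pfkfb1 reached 1 TPM in 2 of 27 and 18 of 67 cells, a difference of 1.25 (0.21 ± 0.85 and 1.46 ± 2.56). Pfkfb2 differed by 0.57 and Pfkfb4 by -0.02, the latter at 1 TPM in 2 and 6 cells.

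The steps from aldolase to enolase held 3 of the 4 most abundant transcripts, with Ldha as the other. Gapdh, which oxidises glyceraldehyde-3-phosphate, had the highest mean TPM of the 32 genes in both genotypes, 5170 in control and 9250 in cKO. Its log2(TPM + 1) ran from 10.33 through 12.41 to 12.83 in control and from 11.77 through 13.13 to 13.9 in cKO cells. Its difference of 0.88 (0.87 and 0.78 in the batches) did not reach 1 log2 unit but was larger than the SD over cells (0.58 and 0.39), and 52 of 67 cKO cells exceeded every control cell. Gapdh serves as the reference gene in many PCR assays.

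Aldoa, the muscle and general aldolase, had means of 11.39 ± 0.73 and 12.15 ± 0.71, a difference of 0.76 with both batches higher. Tpi1 (0.75, 0.94 and 0.12 in the batches), Pgk1 (0.91, with 52 of 67 cKO cells above every control cell) and Eno1 (0.62) were likewise higher in both batches by less than 1 log2 unit, though Pgk1 was at 1.03 without its lowest cKO cell. Aldoc, the brain-type aldolase, was low, at 1 TPM in 9 of 27 control and 44 of 67 cKO cells. It ran from 0 through 0 to 6.39 in control and from 0 through 4.44 to 7.99 in cKO cells, and its difference of 2.09 was 0.92 in batch 1 and 3.53 in batch 2.

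The phosphoglycerate mutases parted. Pgam2, the muscle isoform (chromosome 11, 5801640 to 5803733, minus strand), ran from 7.6 through 9.63 to 11.32 in control cells and from 1.06 through 9.01 to 11.25 in cKO cells. Its mean was 9.64 ± 0.94 and 8.46 ± 2.21, a difference of -1.19 (-1.13 and -1.45 in the batches). The lower mean came with a tail of cKO cells, 14 of 67 below the lowest control cell, while 21 of 67 lay above the control median. By medians over cells the difference was -0.62, and in cells with 7000 to 11000 detected genes it was -0.93, below the threshold in size. Pgam1, the general isoform, differed by 0.93 in the other direction (9.87 ± 0.86 and 10.80 ± 1.11), with 44 of 67 cKO cells above every control cell, and by 1.01 without the lowest cKO cell.

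Among the enolases, Eno3, the muscle isoform, differed by 0.58 (7.80 ± 1.32 and 8.38 ± 1.81) and Eno2, the neuronal isoform, by 0.76 at 1 TPM in 2 of 27 and 22 of 67 cells. Of the muscle isoforms, Pgam2 was thus counted as lower, while Eno3, with a difference smaller than either SD, and Pfkm (-0.26, batches of opposite sign) were not counted. Near-identical copies can share reads with these genes. Eno1b, a copy of Eno1, averaged 1.8 TPM in control and 2.08 TPM in cKO cells, and the processed copies Pgam1-ps2 and Ldha-ps averaged 3.85 and 1.63 TPM in control and 0.258 and 0.028 TPM in cKO cells, against 1070 TPM of Pgam1 in control cells.

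Pkm, which makes pyruvate, ran from 7.01 through 10.34 to 11.35 in control and from 5.35 through 11.34 to 12.4 in cKO cells. Its mean was 9.94 ± 1.18 and 11.10 ± 0.99, a difference of 1.16 (1.19 and 0.87), and 33 of 67 cKO cells exceeded every control cell. The table is at gene level, so the splice forms Pkm1 and Pkm2 cannot be told apart.

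Lactate dehydrogenase interconverts pyruvate and lactate. Ldhb, the heart-type subunit (chromosome 6, 142490249 to 142507957, minus strand), was the gene farthest below control. It ran from 5.9 through 8.78 to 10.29 in control cells and from 0 through 6.93 to 9.46 in cKO cells. All 27 control cells but 60 of 67 cKO cells reached 1 TPM. Of the 67 cKO cells, 21 lay below the lowest control cell and 6 above the control median. The mean was 8.66 ± 0.89 and 5.81 ± 2.91, a difference of -2.85 (-2.02 and -3.67), and the mean TPM was 471 and 161. The batches differed within cKO, where batch 2 averaged 1.72 log2 units less than batch 1, while the control cells of the 2 batches lay 0.07 apart.

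Ldha, the muscle-type subunit and the second most abundant of the 32 genes, had means of 11.77 ± 1.06 and 12.37 ± 0.93, a difference of 0.60 with both batches higher. Slc16a3 (MCT4, a lactate exporter of glycolytic cells, chromosome 11, 120948480 to 120960868, plus strand) ran from 1.12 through 7.64 to 9.71 in control and from 4.64 through 8.7 to 10.73 in cKO cells. Its mean was 6.41 ± 2.59 and 8.43 ± 1.44, a difference of 2.01 (2.22 in batch 1, 1.15 in batch 2), which was smaller than the control SD. Slc16a1 (MCT1, which carries lactate either way) had means of 4.42 ± 2.01 and 4.77 ± 1.87 and batches of opposite sign (0.44 and -0.06).

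The pyruvate dehydrogenase kinases, which switch off the entry of pyruvate into the mitochondrial cycle, held no gene counted as higher or lower. Pdk1 differed by 0.48 (5.35 ± 1.71 and 5.83 ± 1.86, both batches higher), Pdk2 by -0.73 (both lower), and Pdk3 and Pdk4 by 0.31 and -0.17 with batches of opposite sign. Pdk1 and Pdk3 were the abundant forms, with mean TPM of 62.9 and 131 in control cells, and Pdk2 reached 1 TPM in 8 of 27 and 9 of 67 cells.

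**Figure D2:**
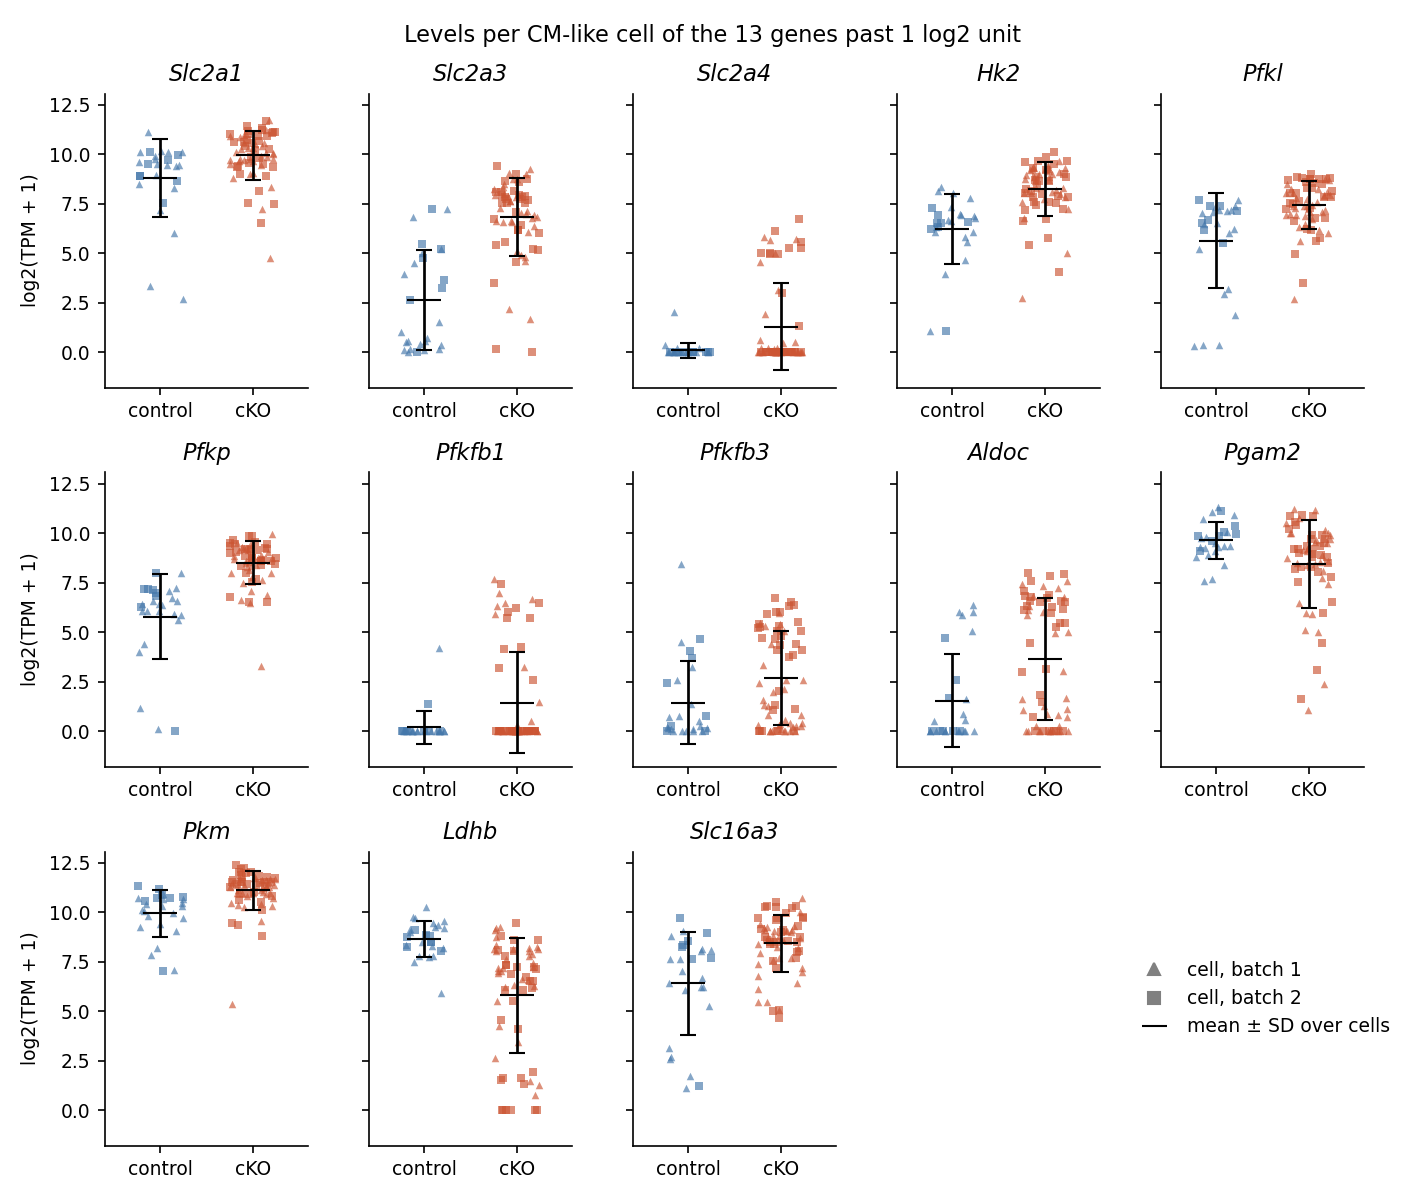
Level of each of the 13 genes counted as higher or lower in every CM-like cell, as log2(TPM + 1), with control in blue (n = 27) and cKO in red (n = 67). Triangles are cells of batch 1, squares cells of batch 2, and black bars the mean ± SD over cells. Pfkp and Hk2 shift up, with 52 and 35 of 67 cKO cells above every control cell and the others within the control range. Ldhb shifts down, with 6 of 67 cKO cells above the control median and a tail down to 0. For Pgam2 most cKO cells stay within the control range beside a tail down to 1.06.

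TPM is scaled per transcript length, so the levels of different genes can be added within a cell. The 19 enzymes from hexokinase to lactate dehydrogenase took 2.24 ± 0.73% of a cell's TPM in control CM-like cells (0.493 to 3.2%, median 2.38%) and 3.7 ± 1.07% in cKO CM-like cells (1.26 to 6.17%, median 3.62%). The difference was 1.46 percentage points, a ratio of 1.65, with 1.41 points in batch 1 and 1.34 in batch 2. The ranges overlapped, but 44 of 67 cKO cells exceeded the highest control cell, 21 of 34 in batch 1 and 23 of 33 in batch 2. Gapdh, Ldha, Aldoa and Eno1 together made up 67.2% of the enzyme TPM in control and 67.4% in cKO. Within that sum Gapdh made up 23.1% in control and 25% in cKO and Ldha 18.8% and 16.5%. Among smaller members, Hk2 was at 0.496% in control and 1.08% in cKO, Pfkp at 0.411% and 1.19%, Pgam2 at 4.32% and 1.78%, and Ldhb at 2.1% and 0.435%.

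In control cells of other classes the share was lower. It was 1.72 ± 0.487% in 13 cells of a cluster led by both epicardial and mesenchymal markers, which stays unnamed, 1.48 ± 1.07% in 5 erythroid-like cells and 1.03 ± 0.306% in 22 endothelial-like cells. Control CM-like cells thus had 2.18 times the share of endothelial-like cells. No cKO cell fell in these classes, so the genotypes were compared among CM-like cells alone.

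**Figure D3:**
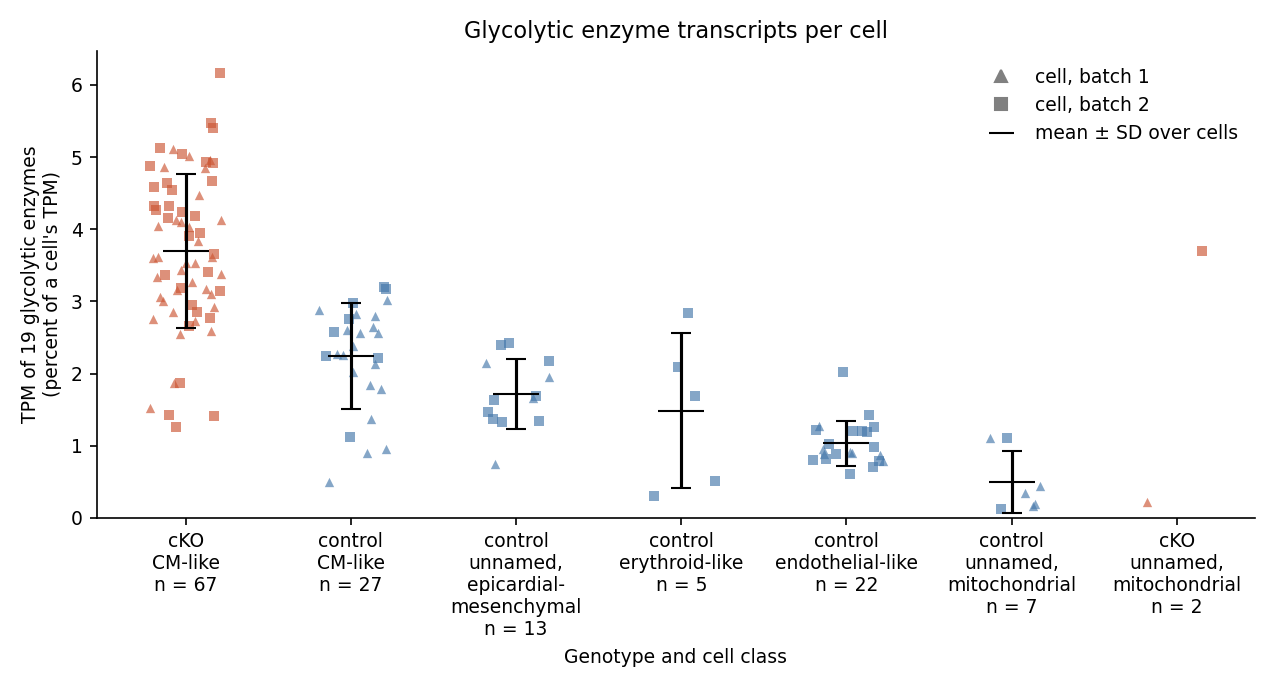
Summed TPM of the 19 glycolytic enzymes as percent of the TPM of each cell (y axis, from 0), by genotype and cell class. Triangles are cells of batch 1, squares cells of batch 2, and bars the mean ± SD over cells where a class held more than 2. The cKO CM-like cells center on 3.7%, above control CM-like cells at 2.24% and endothelial-like cells at 1.03%.

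Within a cell, the share that each isoform takes of its family does not depend on the cell's total. In cKO CM-like cells Pfkp, Hk2, Slc16a3 and Slc2a3 took larger parts of their families than in control, and Pgam2 and Ldhb smaller parts. Pfkp made up 45.7 ± 26.4% of phosphofructokinase TPM in control and 64.5 ± 13.9% in cKO, 18.7 percentage points more (16.5 in batch 1, 22.7 in batch 2). Pfkl made up 46.3 ± 24.7% and 32.3 ± 12.8%, and Pfkp held over 50% in 59 of 67 cKO cells. In control the order of the subunits differed by batch, with Pfkp at 47.2% and Pfkl at 43.1% in batch 1 and 42.5% and 53% in batch 2. Hk2 led the hexokinases with 69.8 ± 20.7% in control and 84 ± 12.7% in cKO, 14.3 points more (12.3 and 22.1).

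Pgam2 made up 46.3 ± 17.8% of phosphoglycerate mutase TPM in control and 23.7 ± 17.9% in cKO, a difference of -22.6 points (-22.0 and -25.2). It held over 50% in 10 of 27 control cells and 5 of 67 cKO cells. Ldhb made up 12.6 ± 11.4% of lactate dehydrogenase TPM in control and 2.92 ± 3.68% in cKO, -9.64 points (-10.4 and -7.28), and Ldha led in every CM-like cell.

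Slc16a3 made up 72.7 ± 27.4% of the pair with Slc16a1 in control and 88.0 ± 13.8% in cKO (15.3 points, 17.9 in batch 1 and 4.37 in batch 2). Slc2a3 took 4.2 ± 8.33% of the transporter TPM in control and 13.7 ± 10.5% in cKO (9.55 points, 11.3 and 7.01), and Slc2a1 remained the leading transporter in 66 of 67 cKO cells. Aldoc stayed a trace of the aldolases at 0.337% and 1.05%. The shares of Eno3 (9.75% and 11.1%), Pdk1 (39.5% and 41.6%) and Pdk3 (53.2% and 53.3%) had batches of opposite sign. For the PFKFB enzymes only 9 control and 42 cKO cells had the family TPM of at least 10 that a share required, and Pfkfb3 took 60.1 ± 45.5% and 54.2 ± 43.5%, with batches of opposite sign (-30 and 3.53 points). Pfkfb1 took 11 ± 33.1% and 27.5 ± 40% (16.5 points, 17.5 and 22.6), a difference smaller than the SD.

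**Figure D4:**
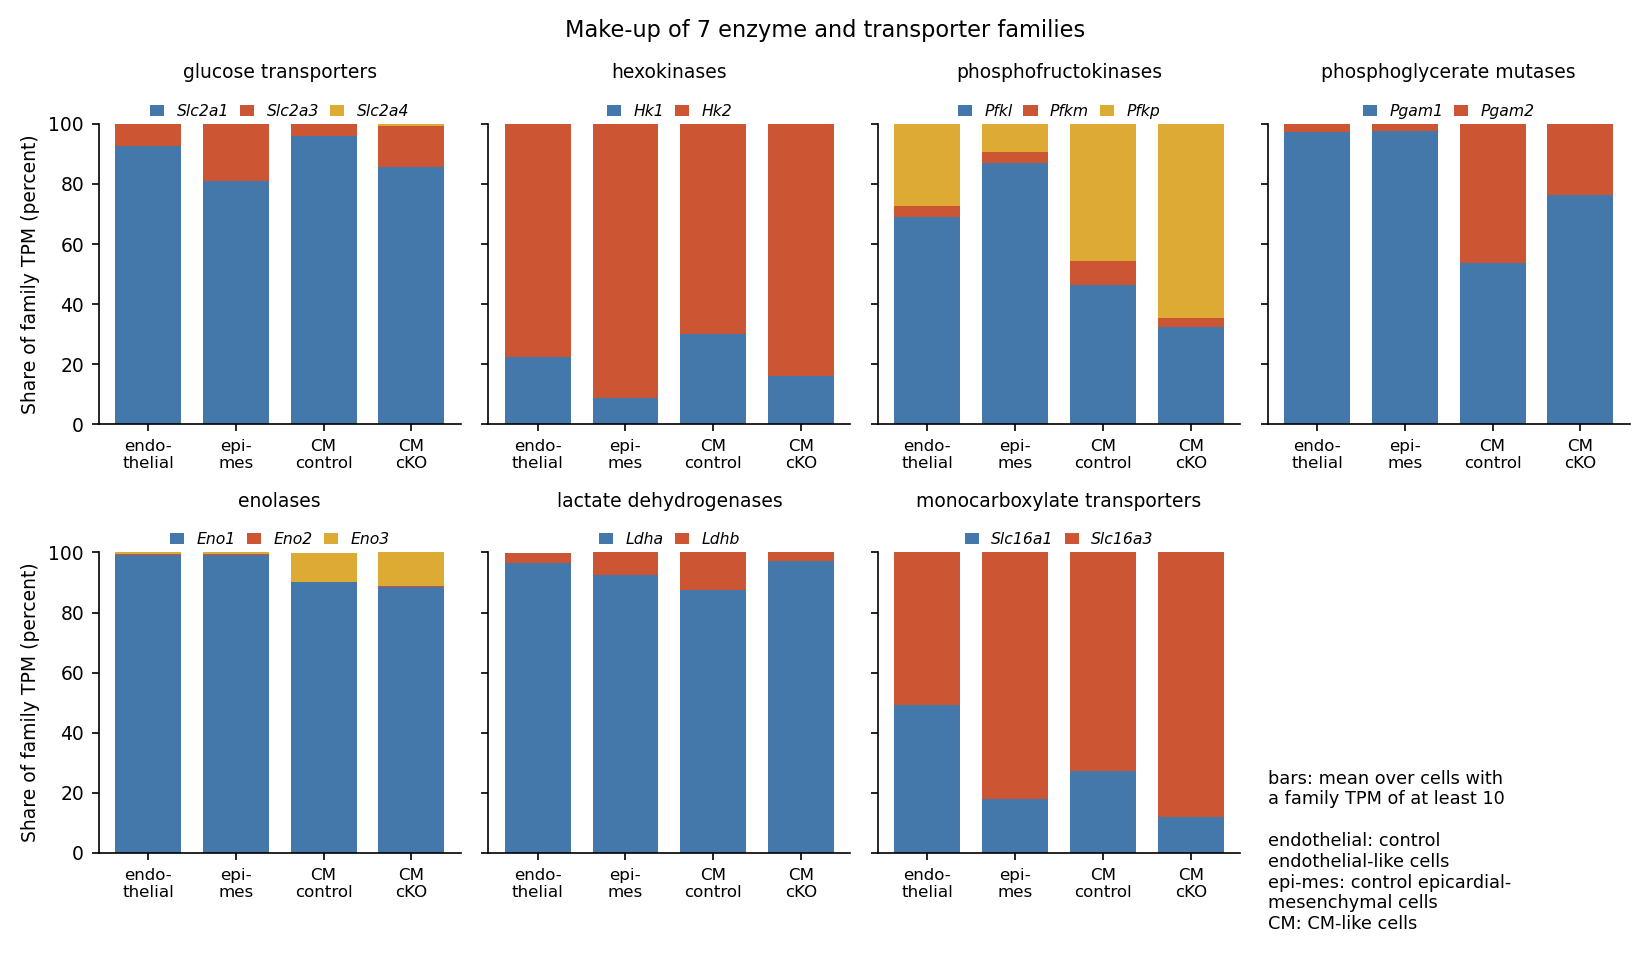
Mean share of each isoform in the TPM of its family (stacked bars, percent) over cells with a family TPM of at least 10, in control endothelial-like, control epicardial-mesenchymal, control CM-like and cKO CM-like cells. Pgam2 takes 46.3% of its family in control CM-like cells, 23.7% in cKO CM-like cells and under 3% in the other 2 groups, and Pfkp grows from 45.7% to 64.5%.

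The genes were also compared between classes of control cells. By the same rule, 18 of the 32 genes were higher in control CM-like than in control endothelial-like cells and 0 lower. The background was 8.11% higher and 20.5% lower of 13130 genes. The median difference was 1.18 log2 units over all 32 genes, of which 29 passed the filter, against -0.29 over all genes that passed. Pgam2 (7.5 log2 units, 9.64 ± 0.94 against 2.14), Eno3 (6.02), Ldhb (4.68) and Slc16a3 (3.55) led. Slc16a3 was not particular to control CM-like cells, at 6.41 against 7.04 in epicardial-mesenchymal cells. In the 5 erythroid-like cells Pgam2 averaged 4.48 ± 4.40 and Eno3 5.96 ± 3.51. Control endothelial-like cells had a median of 10293 detected genes in batch 1 and 8538 in batch 2, beside 8458 and 9704 in control CM-like cells. Against the epicardial-mesenchymal cells, 7 of the 32 genes were higher (Pgam2 6.68, Eno3 4.87, Hk1 3.89, Pfkp 3.67, Pfkm 1.51, Pdk1 1.25, Slc2a1 1.21) and 1 lower (Pfkfb3, -2.63), with a background of 7.73% and 19.4%.

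Of these genes, Pgam2 and Eno3, both muscle isoforms, stood above the endothelial-like and epicardial-mesenchymal cells by more than 4 log2 units in each batch. Pfkm, also a muscle isoform, stood 2.0 above the endothelial-like cells. Above the epicardial-mesenchymal cells it stood 1.51 (2.85 in batch 1, 0.62 in batch 2). In cKO CM-like cells Pgam2 lay below its control level, and at 8.46 it was still far above the endothelial-like and epicardial-mesenchymal means. Eno3 lay above its control level by 0.58, which was not counted as higher. Ldhb in cKO CM-like cells, at 5.81 ± 2.91, lay between the control endothelial-like (3.98) and epicardial-mesenchymal (7.68) means. Most of the glucose uptake and glycolysis genes had a cKO CM-like mean above that of every control class, including Hk2, Pfkl, Pfkp and Slc16a3. The exceptions were Pfkm, Pfkfb2, Pfkfb3, Pfkfb4, Pgam2, Ldhb, Pdk2 and Pdk4.

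**Figure D5:**
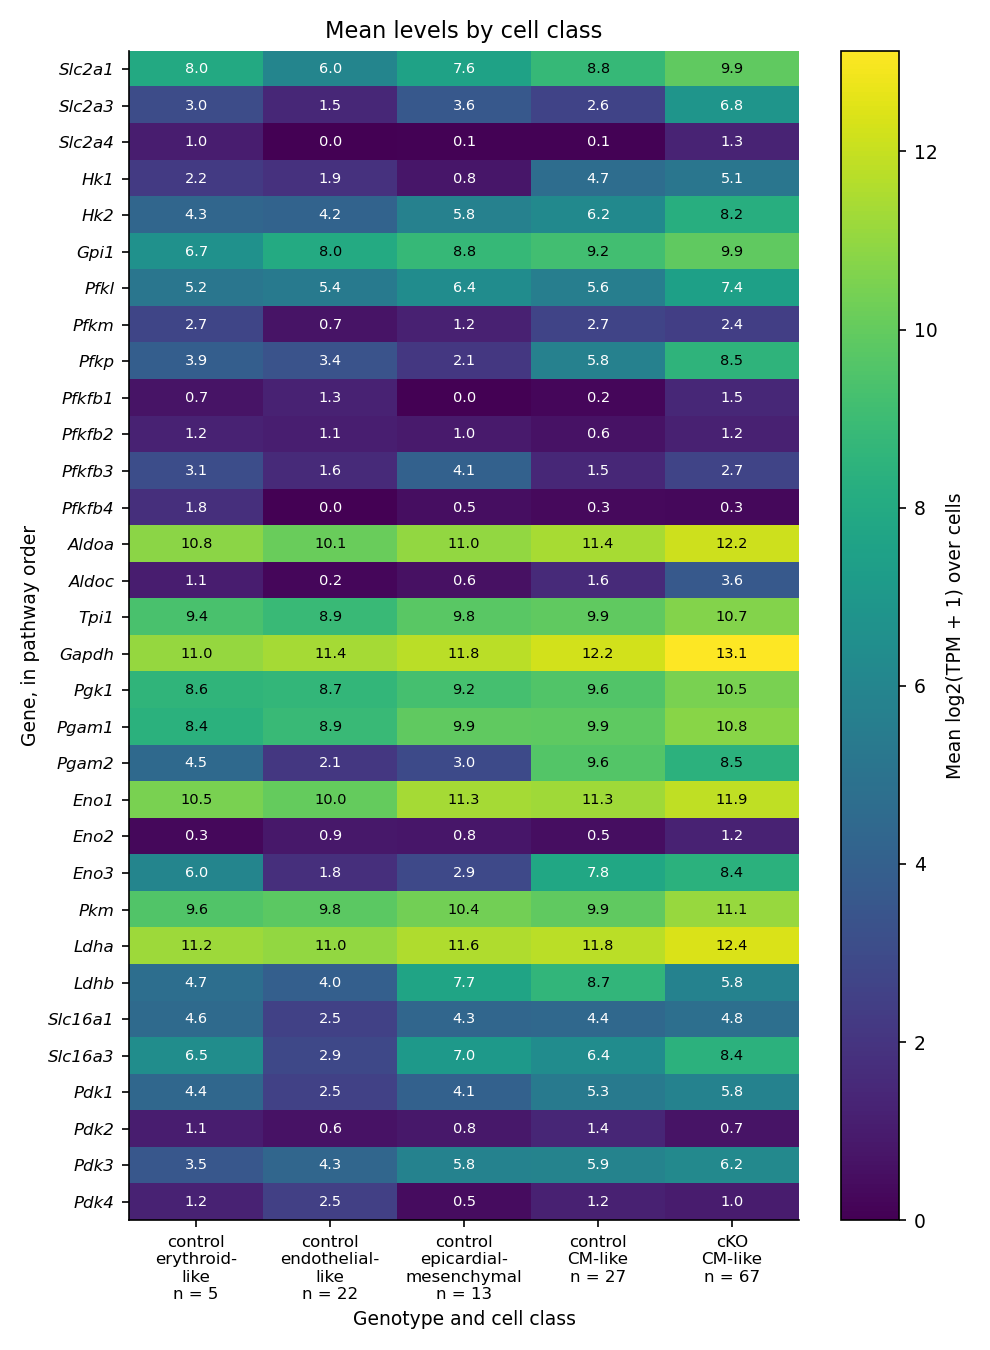
Mean log2(TPM + 1) of the 32 genes (rows, pathway order) in 4 classes of control cells and in cKO CM-like cells (columns), with the colour scale and the printed values in log2 units. Pgam2 and Eno3 are high in CM-like cells, while Gapdh, Aldoa, Ldha and Eno1 exceed 10 in every class.

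Levels of these genes were partly correlated over the 67 cKO CM-like cells. Over the 24 genes detected in most of them, the 276 pairs had a median Pearson r of 0.34 (-0.14 to 0.86), and 69 pairs exceeded 0.5. The pair with the highest r was Pgam1 and Ldha at 0.86 (0.93 in batch 1, 0.79 in batch 2, 0.79 over 27 control cells), followed by Tpi1 and Pkm at 0.85. Other pairs differed by batch, such as Hk2 and Ldha (0.8 in batch 1, 0.02 in batch 2) and Aldoa and Pgk1 (0.11 and 0.79). A cKO cell of batch 1 had the lowest Slc2a1 (4.8), Hk2 (2.8) and Pkm (5.4), with Gapdh at 13.5. The part of such cells in r was not tested, and r of other genes was not measured as a background. The cells share libraries and sampling depth, and the r of a gene with the number of detected genes ran from -0.02 for Pfkfb3 to 0.53 for Ldha.

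Neighbouring pathways were read against the same background of 6.30% higher and 6.15% lower. Of 21 other transporter and glycolysis paralogs in the table, 7 passed the expression filter, and only those could be counted. Of these 7, 2 were higher, the ADP-dependent glucokinase Adpgk (1.10, 1.38 and 0.09 in the batches) and Bsg (1.85, from 9.60 ± 1.36 to 11.45 ± 1.00). Bsg is the chaperone that brings MCT1 and MCT4 to the membrane. Bpgm, which makes 2,3-bisphosphoglycerate, was lower (-1.93). Of 16 glycogen genes, 3 were higher, glycogen synthase Gys1 (1.80), branching enzyme Gbe1 (1.66) and phosphoglucomutase Pgm2 (1.89), and muscle glycogen phosphorylase Pygm was lower (-1.67, -0.74 and -2.68 in the batches).

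Of 8 pentose phosphate genes, 0 were higher and 0 lower, with a median of -0.27. Of 11 genes for pyruvate entry and pyruvate dehydrogenase, 0 were higher and 3 lower, the mitochondrial pyruvate carrier subunit Mpc1 (-1.56), the dehydrogenase subunit Dlat (-1.51, -0.63 and -3.09 in the batches) and its binding protein Pdhx (-1.20), and the median was -0.64. Of 9 genes of the shuttles that carry cytosolic NADH electrons into mitochondria, 8 passed the filter. Of these 8, 0 were higher and 2 lower, Got2 (-1.71, -0.74 and -2.97) and the aspartate-glutamate carrier Slc25a12 (-1.61, -0.76 and -2.75). In batch 2 taken alone 25.2% of all genes tested were lower in cKO by at least 1 log2 unit. Of 6 gluconeogenesis genes, 3 passed the filter, and of these the mitochondrial PEP carboxykinase Pck2 was higher (1.70). The mitochondrially encoded share of TPM was also lower in cKO CM-like cells, 3% against 6.3%, and its part in these differences was not tested.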

How the data were processed

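Single cells from E9.5 ventricles were sequenced by the authors with Smart-seq2 and Tn5 libraries, without molecular identifiers. The deposited unit is TPM per gene, obtained by the authors with Salmon against mm10 (per the submitters' processing notes) in cells kept for a high mapping rate and a reporter signal matching the genotype, and the version and annotation release were not given in the sources used here. TPM keeps no sequencing depth, so the depth per cell is unknown. Its sums ran from 996132 to 999999 per cell. The TPM of a gene depends on all other transcripts of the cell, and a pseudocount of 1 understates differences of low genes.

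Of 170 labelled samples, 143 had a column, and 27 were not analysed here. No cells were removed and no doublet caller was run on the hand-picked cells. Groups came from the labels. Cells were clustered by Ward linkage on 55 z-scored markers (5 clusters, python 3.11.15, scipy 1.17.1). Differences of mean log2(TPM + 1) were described with the SD over cells, pooled and per batch, with no test, since the study's rank-sum test treats cells as replicates. The script was tested on simulated data. Intervals on shares of cells are exact Clopper-Pearson at 95%, and a count of 0 allows 3 cells. The 32 genes and all lists were chosen with earlier results of these data known. All 32 genes were accounted for, those counted as higher or lower and the leading isoform of each family in full, and other pathway genes were named when past the same threshold. The study's cell classes used Gapdh, Aldoa and Eno3 as markers and were not used. Gene positions are from GENCODE on GRCm38, the assembly of mm10.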

Additional observations from a re-analysis of the deposited data

Results flagged for a closer look

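The cluster led by mitochondrially encoded transcripts entered no comparison. In it Slc2a3 had a log2(TPM + 1) of 6.4 and 7.78 in the 2 cKO cells, above the highest of the 7 control cells at 5.03. This is a signal in cells outside the comparisons, in cells with 4244 to 6521 detected genes for cKO and 2063 to 10851 for control, and the difference was not tested. These cells were unlike each other. Mitochondrially encoded genes took 61.4% of TPM in the cKO cell at 6.4, 13% in the cKO cell at 7.78 and 4.32% in the control cell at 5.03. The cKO cell at 7.78 also had Pfkp at 8.34, Pgam2 at 9.98 and Ldhb at 0, and a glycolytic share of 3.7%.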

How the results depend on the processing

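No paired analysis was possible because the labels give cells no replicate numbers that tie a control cell to a cKO cell. The alternatives varied the pseudocount, the summary over cells, the scaling, the batch, the clustering, the cells and the filter. The median difference of the genes that passed the filter was 0.57 to 1.55 log2 units (main 0.76), and the glycolytic share differed by 1.05 to 2.07 points (main 1.46). Of the 13 genes counted as higher or lower, 12 kept their direction under every alternative that gave them a value above 0 in size, and the medians of Slc2a4 and Pfkfb1 were 0 in both genotypes. Using all cells of each genotype whatever their class reversed Pgam2 (2.94 log2 units, share 0.209 points), since only control holds other classes, and counted 23 genes higher and 0 lower (6% and 5.77% of all genes tested). The 11 higher genes became 22 with 4 clusters, where the class held 34 control and 69 cKO cells and 11.9% of all genes were higher, and 22 at a threshold of 0.5, where 15% were, against 6.3% in the report. The 2 lower genes became 1 with 4 clusters, with medians over cells, and with 7000 to 11000 detected genes, where Pgam2 was at -0.93. By the log2 ratio of mean TPM Pgam2 (-0.56) was no longer counted and Pdk2 (-1.10) was. There were 8 higher genes at a pseudocount of 10 (1.81% of all genes), by medians over cells (6.24%), in batch 2 alone (7.56%) and with clusters built without markers and the 32 genes (9.16%, 13 control and 61 cKO cells). Leaving out a single cell gave 10 to 12 higher and 2 lower genes, with Slc2a1 as low as 0.93, a median difference of 0.70 to 0.80 and a share of 1.39 to 1.49 points. The median difference between control CM-like and endothelial-like cells was 0.40 to 1.41. Unknown depth limits statements on genes seen in few cells, and the 8 control CM-like cells of batch 2 limit that batch.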
